A study of Rattus norvegicus with 10 samples.

Results

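The 9 genes described here, Lingo1, Rab11fip5, Bpifb6, Shc2, Sgce, Akap2, Tldc2, C2cd4a and Fer1l4, were chosen by their large log2 fold changes between diets in the distal colon epithelium of rats, although little is known of what most of them do there. They are 9 of 23422 genes in the count table and 9 of the 12385 that passed the filter on low counts, several of them only through the diet in which they are high. Because the diet difference chose them, that difference is given below as a description, with no test. On cholate 6 of them were lower (Lingo1, Rab11fip5, Bpifb6, Shc2, Sgce and Akap2) and 3 were higher (Tldc2, C2cd4a and Fer1l4).

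The rats were male Wistar Munich animals kept singly in metabolic cages, and all ate the same standard chow for 3 days of acclimatization. The control group stayed on that chow, and the cholate group received it with 1% by weight of sodium cholate, the sodium salt of a primary bile acid, for 10 days. Epithelial cells were shaken from everted sacs of the last part of the colon after 20 min in calcium-free buffer with EDTA, and their poly(A) RNA was sequenced. Of 6 rats per diet, the 5 with the most concentrated RNA were used, which makes control rats 1, 2, 5, 6 and 9 and cholate rats 3, 4, 7, 8 and 11, each 1 library from 1 animal. In such bulk samples fewer cells of a type and less RNA per cell cannot be told apart.

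Colonocytes absorb salt and water, sort membrane proteins between their apical and basolateral faces through recycling endosomes, and anchor kinases close to those membranes. Several of the 9 genes belong to families that are best known from elsewhere. Lingo1 and Shc2 are studied mainly in neurons, Sgce in muscle and brain, and C2cd4a in pancreatic islets and endothelium. Bpifb6 belongs to a family of secreted and membrane-associated lipid-binding proteins, and Fer1l4 to the ferlins, membrane proteins with calcium-binding C2 domains.

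The libraries held between 14337356 counts (cholate rat 11) and 45285762 counts (cholate rat 4). Where no count was found, up to 3 counts remain possible, which is 0.0616 to 0.228 CPM depending on the library. CPM here means counts relative to library size after scaling by TMM, a trimmed mean of ratios between libraries. The libraries did not vary evenly within a diet. A single axis held 66.3% of the variation within diets over all genes tested, with scores from 0.17 to 0.31 in control rats 1, 2 and 6 and cholate rats 3, 4 and 7, and from -0.48 to -0.13 in control rats 5 and 9 and cholate rats 8 and 11. Its sign was set to rise with depth. The shallowest libraries, cholate rats 11 and 8 and control rat 9 (14337356, 18584910 and 19883925 counts), had negative scores. So had control rat 5, with 25957175 counts, more than control rats 1 and 2 and cholate rat 3. The part of depth in this axis was not tested. Across the 12385 genes, a gene's correlation with this axis had a Spearman coefficient of 0.36 with its coding length.

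The epithelial label was checked against marker genes. The summed level of 15 colonocyte markers ran from 18752 to 25031 CPM in controls and from 29890 to 40751 CPM on cholate, and 3 of the 15 (Krt20, Car1 and Car4) passed the test as higher. The 10 markers of enteric neurons and glia summed to 1.45 to 2.24 CPM in controls and 1.63 to 2.46 CPM on cholate, with 2 tested and none called. The 11 fibroblast markers summed to 6.05 to 9.85 CPM in controls and 5.09 to 8.77 CPM on cholate, with 3 tested, none called and Col1a2 at 0. This sum hides a difference between the 3 tested markers. Col1a1 had means of 2.95 CPM in controls and 0.472 CPM on cholate (log2 fold change -2.56, SE 0.52). Its diets did not overlap, and it missed the limit on the adjusted p only narrowly. Vim had 3.90 and 4.67 CPM, and Pdgfrb 0.502 and 0.625 CPM. The 7 endothelial markers summed to 4.07 to 8.31 and 1.90 to 4.29 CPM, with 1 of 3 tested called lower (Vwf). The 9 smooth muscle markers summed to 118 to 208 and 92.5 to 235 CPM, with 1 of 3 tested called lower (Des) and Lmod1 at 0. Mylk made up most of this sum, with means of 117 CPM in controls and 155 CPM on cholate. Des had 38.2 and 4.50 CPM, Myh11 10.6 and 5.83 CPM, and Synm 0.239 and 3.89 CPM. The means of Acta2, Actg2, Tagln and Cnn1 were 0.343 CPM or less in both diets. Among other epithelial lists, 3 of 9 tested enteroendocrine markers were higher (Gcg, Pyy and Cck), 1 of 9 goblet markers was higher (Spink4) and 1 lower (Retnlb), and 0 of 7 tuft and 0 of 7 immune markers were called by edgeR. Calls here needed an adjusted p under 0.01 and a fold over 2. Over all genes tested 1.10% were called higher and 2.12% lower. The part of these marker shifts in the results below was not tested.

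The sequences next to the starts of these genes are shown for their density of CpG dinucleotides, the sites of DNA methylation. The windows are the 120 bases before the annotated start, bases -120 to -1, in the RefSeq annotation of build GRCr8, and all 9 genes matched an entry there. They are printed 5′ to 3′ on the gene's strand, with every CpG in capitals, and in C2cd4a also the letters TATAAA. Rab11fip5 and Lingo1 stand for the CpG-rich starts, Bpifb6 is a lowered gene that lacks one, and C2cd4a and Fer1l4 are the raised genes with the largest changes.
Rab11fip5, chr4:119466214-119466333, minus strand: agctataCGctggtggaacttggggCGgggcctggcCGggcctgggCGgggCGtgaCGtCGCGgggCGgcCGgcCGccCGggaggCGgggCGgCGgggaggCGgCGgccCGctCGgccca
Lingo1, chr8:65924167-65924286, minus strand: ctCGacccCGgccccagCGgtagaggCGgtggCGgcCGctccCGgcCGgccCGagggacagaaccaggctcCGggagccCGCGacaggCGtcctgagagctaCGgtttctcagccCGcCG
Bpifb6, chr3:162841524-162841643, plus strand: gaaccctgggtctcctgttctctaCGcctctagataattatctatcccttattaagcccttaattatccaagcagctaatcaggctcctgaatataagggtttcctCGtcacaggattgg
C2cd4a, chr8:77350922-77351041, minus strand: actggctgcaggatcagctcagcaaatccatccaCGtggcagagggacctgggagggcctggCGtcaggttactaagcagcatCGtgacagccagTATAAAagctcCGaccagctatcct
Fer1l4, chr3:165031720-165031839, minus strand: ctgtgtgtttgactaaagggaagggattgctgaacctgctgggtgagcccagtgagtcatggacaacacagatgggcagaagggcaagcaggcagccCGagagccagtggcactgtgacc

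In these windows Rab11fip5 has 19 CpGs and Lingo1 16, whereas Bpifb6 has 2, C2cd4a 4 and Fer1l4 1. Over the full 300 bases around the start, 250 before and 50 after, the ratio of observed to expected CpGs was 0.87 for Lingo1, 0.86 for Rab11fip5, 0.84 for Shc2 and 0.81 for Sgce. The gene that holds Akap2 in the newer annotation has 2 starts, with ratios of 0.91 and 0.44. The other values were 0.56 for C2cd4a, 0.22 for Tldc2, 0.16 for Bpifb6 and 0.12 for Fer1l4. The median over all 33469 promoters of the table was 0.39, and 65.6% of them lay under 0.6. Of the 6 lowered genes 5 thus had at least 1 start over 0.6, Akap2 only through the first of its starts, and of the 3 raised genes 0 did. The newer gene that holds Akap2 also holds Palm2, which lies before Akap2 on the same strand. Which of its starts belongs to the Akap2 counted here was not settled, and the first may be that of Palm2. With 9 genes chosen for their change this is a description and was not tested.

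**Figure D1:**
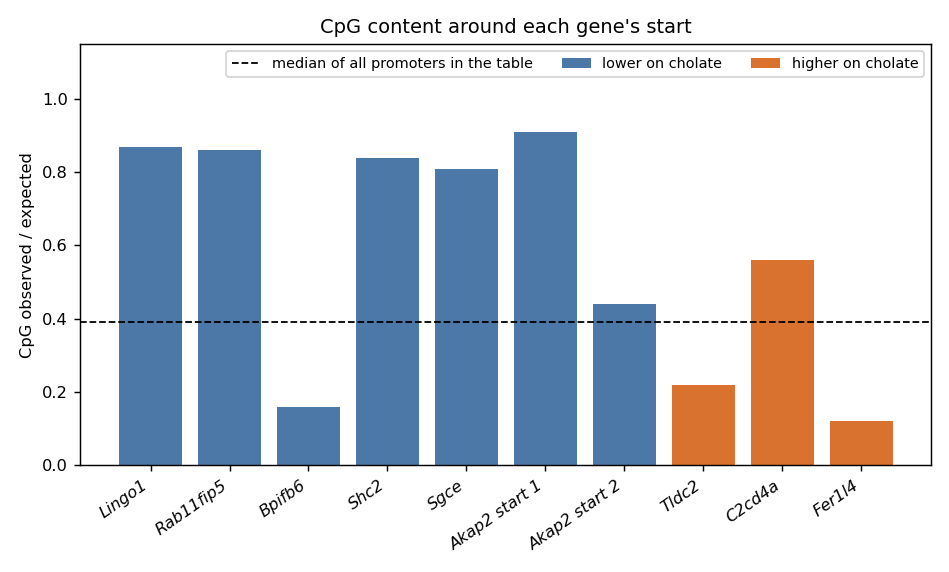
Ratio of observed to expected CpG dinucleotides in the 300 bases around the annotated start of each gene (vertical axis, linear from 0), coloured by the direction of the diet difference. Akap2 is drawn at both starts of the newer gene that holds it together with Palm2. Lingo1, Rab11fip5, Shc2, Sgce and the first Akap2 start lie between 0.81 and 0.91, and the dashed line marks the median of all promoters, 0.39.

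Short motifs were counted on both strands of the same 300 bases, for Akap2 again at both starts of the newer gene that holds it. The letters TATAAA, found near the start of many tightly regulated genes, occurred in C2cd4a alone among the 9 genes, beginning at base -25, and in 14.2% of all promoters. GGGCGG, the GC box, occurred 6 times in Rab11fip5 (no match overlapping another), 2 times each in Shc2, Sgce, Tldc2 and the first Akap2 start and 1 time in Lingo1, and is present in 33.1% of all promoters. AGGTCA, the half-site of many nuclear receptors, was found 1 time each in Bpifb6 and Fer1l4 (16.2% of all promoters). TGANTCA, the AP-1 site, was found 1 time in Fer1l4 (7.33%). TGACG, part of the cyclic AMP response element, was found 2 times in C2cd4a and 1 time each in Rab11fip5, Bpifb6 and the first Akap2 start (21.2%). TTTATG, a half-site of the intestinal CDX factors, was found 1 time, in Bpifb6 (12.7%).

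The lowered genes are described first. Rab11fip5 encodes a Rab11-binding protein of the recycling endosome, which returns membrane proteins to the apical surface (Entrez 312502, Rnor_6.0 chromosome 4, 117113067 to 117154495, minus strand). Its level was 65.6, 79.1, 55.7, 57.4 and 41.1 CPM in control rats 1, 2, 5, 6 and 9, and 7.72, 6.88, 10.4, 9.83 and 15.0 CPM in cholate rats 3, 4, 7, 8 and 11. The highest cholate rat, number 11, still lay 2.74-fold under the lowest control rat, number 9, so the diets did not overlap. The means were 59.8 ± 13.9 and 9.97 ± 3.18 CPM (SD, n = 5 per diet), a log2 fold change of cholate over control of -2.59 (standard error, SE, 0.25). Among the 6 libraries with positive scores the log2 fold change was -2.98.

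Lingo1 encodes a leucine-rich repeat protein of the cell surface that pairs with the Nogo receptor on neurons (Entrez 315691, chromosome 8, 61272125 to 61455480, minus strand). It stood at 5.15, 12.0, 6.53, 6.51 and 8.0 CPM in control rats 1, 2, 5, 6 and 9, and at 0.702, 0.329, 0.535, 0.438 and 0.380 CPM in cholate rats 3, 4, 7, 8 and 11. Control rat 2 was the highest of all, and every cholate rat lay at least 7.35-fold under the lowest control rat. The means were 7.63 ± 2.62 and 0.477 ± 0.147 CPM, a log2 fold change of -3.98 (SE 0.32). Of all genes tested it ranked 19 from the bottom by fold change, and within each diet its highest rat was 2.32-fold (control) or 2.13-fold (cholate) over its lowest.

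Bpifb6 encodes a protein with the lipid-binding fold of the bactericidal permeability-increasing protein (Entrez 311558, chromosome 3, 149382312 to 149396130, plus strand). Control rats 1, 2, 5, 6 and 9 had 3.54, 9.27, 5.82, 5.42 and 5.93 CPM. Cholate rats 3, 4, 7, 8 and 11 had 0.0738, 0.0616, 0.294, 0.188 and 0.228 CPM, which is 22 counts over all 5 libraries against 806 in controls. In 4 of the cholate libraries the count was 2 or 3, at the limit that a count of 0 would allow, so the low level is known only roughly. The lowest control rat was 12.0-fold over the highest cholate rat. The log2 fold change was -5.18 (SE 0.47), or -4.70 with a prior count of 2 in the fit, which pulls low counts together.

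Shc2, an adaptor that links receptor tyrosine kinases to Grb2 and Ras, had 9.08, 10.7, 3.62, 10.2 and 5.71 CPM in control rats 1, 2, 5, 6 and 9 (Entrez 314612, chromosome 7, 12948952 to 12971174, plus strand). It had 0.295, 0.493, 0.535, 0.376 and 0 CPM in cholate rats 3, 4, 7, 8 and 11. Cholate rat 11, the shallowest library, had no count, which allows up to 0.228 CPM. Controls 5 and 9 were the lowest controls, and the diets did not overlap, with a gap of 6.76-fold. The means were 7.87 ± 3.07 and 0.340 ± 0.212 CPM, a log2 fold change of -4.40 (SE 0.53).

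Sgce encodes epsilon-sarcoglycan, a transmembrane partner of the dystrophin complex whose gene is imprinted and read from the paternal copy (Entrez 432360, chromosome 4, 29726140 to 29769902, minus strand). Control rats 1, 2, 5, 6 and 9 had 19, 16.7, 8.80, 25.1 and 8.54 CPM, and cholate rats 3, 4, 7, 8 and 11 had 1.22, 0.329, 0.643, 0.188 and 2.13 CPM. Within cholate the highest rat was 11.3-fold over the lowest, and the diets remained apart by 4.02-fold. The means were 15.6 ± 7.05 and 0.901 ± 0.791 CPM, with a log2 fold change of -4.19 (SE 0.60). The 6 libraries with positive scores gave -4.86.

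Akap2 encodes an A-kinase anchoring protein, which holds protein kinase A at the actin cytoskeleton and membranes (Entrez 298024, chromosome 5, 74874245 to 74985789, plus strand). Its control levels were the most uneven of the 6 lowered genes, at 12.8, 19, 4.14, 7.77 and 2.78 CPM in rats 1, 2, 5, 6 and 9. In cholate rats 3, 4, 7, 8 and 11 it stood at 0.0369, 0.308, 0.0803, 0.0626 and 0 CPM, which is 20 counts in all, 15 of them in rat 4. Rat 4 thus stood above the other cholate rats, yet 9.01-fold under the lowest control rat. The means were 9.30 ± 6.68 and 0.0976 ± 0.121 CPM, a log2 fold change of -6.19 (SE 0.77), the fifth lowest of all genes tested. Without cholate rat 4 it was -7.36, and with a prior count of 2 it was -5.62.

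The 3 raised genes started from very different levels. Tldc2 encodes a small protein of the TLDc domain family, whose better known members Oxr1 and Ncoa7 take part in protection from oxidative stress (Entrez 502689, chromosome 3, 153195295 to 153208118, plus strand). It was already expressed in controls, at 11.3, 12.0, 12.2, 15.3 and 11.8 CPM in rats 1, 2, 5, 6 and 9, and it reached 36.9, 30.8, 42.1, 33.7 and 36.4 CPM in cholate rats 3, 4, 7, 8 and 11. Apart from control rat 6 the controls lay between 11.3 and 12.2 CPM, and the lowest cholate rat was 2.01-fold over the highest control. The means were 12.5 ± 1.59 and 36 ± 4.20 CPM, a log2 fold change of 1.52 (SE 0.14). Tldc2 had the smallest change and also the smallest spread of the 9.

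C2cd4a encodes a C2 domain protein that is induced by cytokines in endothelium and lies at a diabetes-associated locus (Entrez 691703, chromosome 8, 73671516 to 73686344, minus strand). It was near the detection limit in control rats 1, 2, 5, 6 and 9, at 0.105, 0.383, 0.634, 0.355 and 0.653 CPM, and reached 7.20, 10.7, 4.71, 3.00 and 3.11 CPM in cholate rats 3, 4, 7, 8 and 11. Cholate rats 8 and 11 were the lowest of their diet, and controls 5 and 9 the highest of theirs. The smallest cholate value was 4.60-fold over the largest control value. The means were 0.426 ± 0.226 and 5.75 ± 3.25 CPM, with a log2 fold change of 3.78 (SE 0.52), and the 6 libraries with positive scores gave 4.75.

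Fer1l4, a ferlin, had 0.245, 0.0383, 0.671, 0.164 and 0.708 CPM in control rats 1, 2, 5, 6 and 9, or 45 counts over the 5 libraries (Entrez 296307, chromosome 3, 151564604 to 151600140, minus strand). It had 4.47, 8.32, 3.00, 16.4 and 19.1 CPM in cholate rats 3, 4, 7, 8 and 11. The same libraries stood high in both diets, controls 5 and 9 and cholate rats 8 and 11, which are the 4 with negative scores on the leading axis. The diets did not overlap, with 4.24-fold between the nearest rats. The means were 0.365 ± 0.305 and 10.2 ± 7.16 CPM, a log2 fold change of 4.84 (SE 0.75), or 5.11 among the 6 other libraries.

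**Figure D2:**
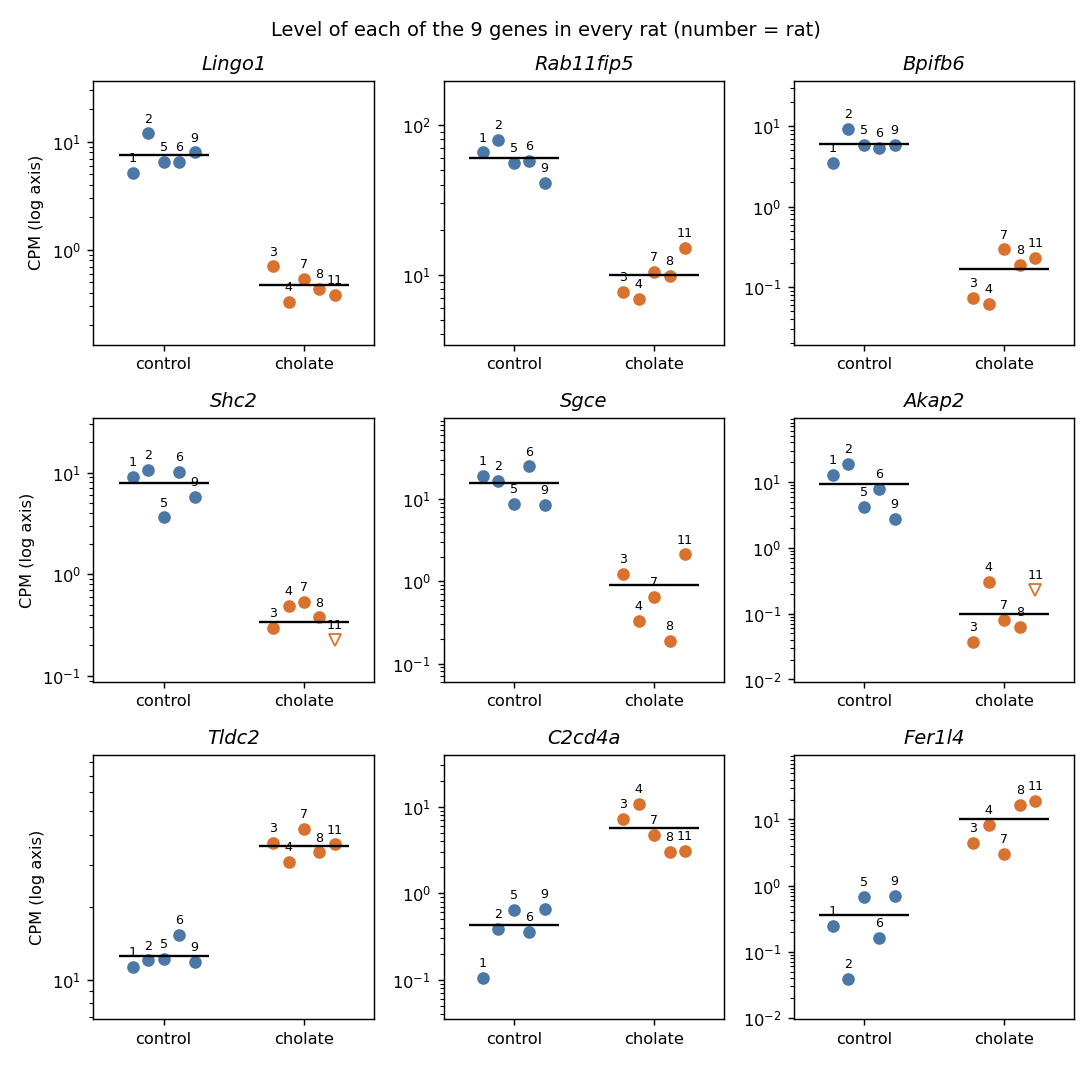
Level of each gene in CPM (vertical, log axis, a separate range per panel) in every rat, with the rat's number above its point and the diet mean as a line. Open triangles mark a count of 0, drawn at the 3 counts that it allows (0.228 CPM in cholate rat 11), and in each of the 9 panels the control and cholate points lie apart.

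A gene was called where the adjusted p was under 0.01 and the fold over 2, a rule that took 398 genes or 3.21% of those tested, 1.10% as higher and 2.12% as lower. All 9 members were called, as follows from how they were chosen. That the 5 cholate values lay apart from the 5 control values in all 9 follows largely from the same choice. Such a separation held for 13.1% of the genes tested, 6.30% as higher and 6.80% as lower. Fer1l4 was not among the called genes without control rat 1 or without control rat 6.

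**Figure D3:**
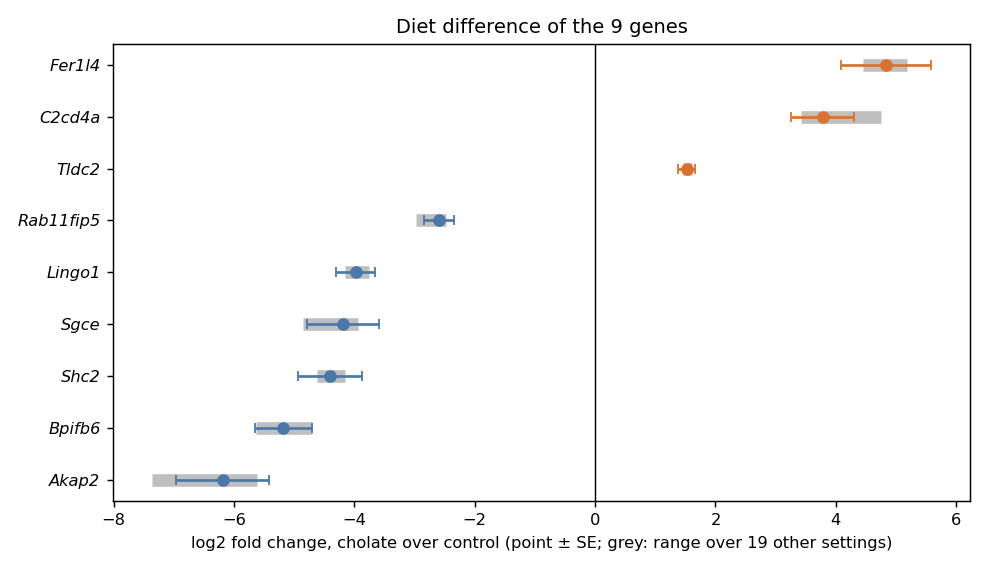
Log2 fold change of cholate over control (horizontal) for the 9 genes, ordered by size, with the SE as error bars and the range over 19 other settings as grey bars. Akap2 had the widest grey range, -7.36 to -5.62, and Tldc2 the narrowest, 1.46 to 1.61.

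The 9 genes differed in how much the rats of 1 diet varied. The biological coefficient of variation, edgeR's estimate of the spread between rats beyond counting error, was 19.7% for Tldc2 against 33.1% for genes of like level. It was 28.1% for Rab11fip5 (31.8% for like genes), 33.3% for Lingo1 (42.1%) and 39.5% for Bpifb6 (43.2%). Shc2 (43.9% against 42.0%) and C2cd4a (50.0% against 43.2%) lay a little over that level. Sgce (58.0% against 38.4%), Akap2 (67.9% against 41.4%) and Fer1l4 (69.5% against 41.0%) varied most. In controls alone the coefficient of variation of the CPM ran from 12.7% for Tldc2 to 83.5% for Fer1l4.

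Levels of different genes can be compared only per length, and the lengths in the deposited table are coding lengths. Per kilobase of coding sequence, the control order was Tldc2 at 15.8 ± 2.01, Rab11fip5 at 13.8 ± 3.22 and Sgce at 12.9 ± 5.83 CPM, which did not differ beyond their spread. Shc2 (4.57 ± 1.78), Bpifb6 (4.44 ± 1.53), Lingo1 (4.10 ± 1.41) and Akap2 (3.51 ± 2.52) formed a second group within each other's spread, well over C2cd4a at 0.417 ± 0.221 and Fer1l4 at 0.0610 ± 0.0510. On cholate Tldc2 led at 45.5 ± 5.31 CPM per kilobase, then C2cd4a at 5.62 ± 3.17, Rab11fip5 at 2.31 ± 0.736 and Fer1l4 at 1.71 ± 1.20. The spreads of C2cd4a, Rab11fip5 and Fer1l4 overlapped, so their order is not resolved. Sgce (0.746 ± 0.655), Lingo1 (0.256 ± 0.0791), Shc2 (0.197 ± 0.123), Bpifb6 (0.13 ± 0.0742) and Akap2 (0.0368 ± 0.0458) followed. The coding part makes up 13.3% of the annotated exon bases of C2cd4a and 98.1% of those of Fer1l4, and whether reads in untranslated exons entered the counts was not given in the sources used here. This order therefore holds only as far as coding length is the right divisor.

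Of 82 tested family members, partners and neighbours of the 9 genes, 5 passed the test. Of 60 family members with a row of counts, 31 were tested, and 4 were called, all lower (Palm2, Akap12, Palm and Lbp), with a median log2 fold change over the 31 of -0.27. Of 36 tested partners 1 was called lower (Ret), with a median of 0.08, and of 19 tested neighbours, up to 2 on each side, 1 was called lower (Palm2), with a median of 0.12. Palm2 counts in both the family and the neighbour list, and may be part of the same gene as Akap2. Over all genes tested the median was -0.01 and 2.12% were called lower. DESeq2 called 10 of these related genes rather than 5, and the 6 libraries with positive scores 10. Over all genes those 2 settings called 886 and 1003 rather than 398. The 6 libraries were picked by the variation within diets, which narrows that spread. Their p values are therefore too small, and calls among them are no support.

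The closest parallel was next to Akap2. Palm2, a member of the paralemmin family of membrane-attached phosphoproteins, lies 86181 bases before Akap2 on the same strand. The newer RefSeq annotation joins both under 1 gene named Pakap. Whether they are parts of 1 gene could not be settled from counts per gene. If they are, Palm2 is no separate relative, and its test shares the choice of Akap2 by the diet difference. Palm2 stood at 4.66, 6.36, 1.86, 4.73 and 0.762 CPM in control rats 1, 2, 5, 6 and 9, and at 0.222, 0.0821, 0.0535, 0 and 0 CPM in cholate rats 3, 4, 7, 8 and 11. The diets did not overlap, and control rat 2 was the highest in Palm2 as in Akap2, and control rat 9 the lowest in both. Its log2 fold change was -5.41 (SE 0.77, edgeR quasi-likelihood adjusted p = 0.00210), and it was called in all 10 fits that left out 1 rat, with adjusted p values from 0.00109 to 0.00874. Within diets Palm2 and Akap2 had r = 0.70 over 10 rats (rho = 0.58, exact permutation p = 0.0472, adjusted p = 0.299 over 19 relations), and r = 0.57 without the 2 rats farthest out. The other 3 tested neighbours of Akap2 had log2 fold changes of 0.44 (Ptpn3), -0.28 (LOC685849) and 0.58 (Txn1), none of them called.

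Other anchoring proteins and paralemmins differed from gene to gene. Palm, the founding paralemmin, fell from 17.8 ± 4.45 to 4.59 ± 0.721 CPM (log2 fold change -1.96, SE 0.21, edgeR adjusted p = 0.000580) and was called in all 10 fits without 1 rat. Akap12, a scaffold for protein kinases A and C, fell from 5.02 ± 4.0 to 0.253 ± 0.248 CPM (-4.10, SE 0.78, edgeR adjusted p = 0.00763), but in only 2 of the 10 fits without 1 rat was it called, with adjusted p values up to 0.0239. The anchoring proteins Akap1 and Akap9 had log2 fold changes of -0.02 and -0.21, neither of them called. Of the protein kinase A subunits, Prkaca had 0.08, Prkar1a 0.22 and Prkar2a 0.38, again without a call. Actn4, an actin cross-linker, stood at 799 ± 116 and 1464 ± 271 CPM, a log2 fold change of 0.87 (edgeR adjusted p = 0.00607) that lies under the fold limit. Among the 6 libraries with positive scores the log2 fold change of Actn4 was 1.06.

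For Rab11fip5, all 4 of the other Rab11 family interacting proteins were tested and none was called by edgeR. Rab11fip1 stood at 152 and 143 CPM in controls and on cholate (log2 fold change -0.09), and Rab11fip3 at 48.0 ± 5.51 and 30.6 ± 3.86 CPM (-0.65, edgeR adjusted p = 0.0107). The small GTPase Rab11a itself stood at 156, 174, 155, 173 and 155 CPM in control rats 1, 2, 5, 6 and 9, and at 233, 266, 262, 290 and 294 CPM in cholate rats 3, 4, 7, 8 and 11. Every cholate rat was over every control, with a log2 fold change of 0.72 (SE 0.10, edgeR adjusted p = 0.00192) that stayed under the fold limit, while the motor Myo5b stood at 217 and 218 CPM. Of the 10 tested partners of Rab11fip5, edgeR called 0.

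C2cd4b, the paralog of C2cd4a, lies 77000 bases away on the opposite strand. Its control levels were 3.54, 4.21, 4.66, 2.71 and 6.20 CPM in rats 1, 2, 5, 6 and 9, and its cholate levels 39.1, 16.6, 6.91, 14.3 and 9.11 CPM in rats 3, 4, 7, 8 and 11. The diets did not overlap, but cholate rat 7 was close to control rat 9. The log2 fold change was 2.02 (SE 0.45, edgeR adjusted p = 0.0148), which missed the limit with edgeR and passed it with DESeq2 (2.04, adjusted p = 0.000110). The paralogs C2cd4c and C2cd4d had -0.17 and -0.74. Per kilobase of coding sequence C2cd4b exceeded C2cd4a, at 4.17 against 0.417 CPM in controls and 16.8 against 5.62 CPM on cholate. The handling of reads shared between paralogs was not given in the sources used here.

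Ncoa7, a relative of Tldc2, stood at 12.1 ± 3.72 and 39.7 ± 24.2 CPM (log2 fold change 1.71, edgeR adjusted p = 0.0243). It was not called by edgeR with all 10 rats, but was called by DESeq2 (1.74, adjusted p = 0.000865). Among the 6 libraries with positive scores its log2 fold change was 2.02. Its cholate rats ran from 14.9 CPM in rat 11 to 73.1 CPM in rat 3, and overlapped the controls, in contrast to the even values of Tldc2. The other family members of Tldc2 had 0.53 (Oxr1), -0.15 (Tldc1) and -1.42 (Tbc1d24), and the 4 tested neighbours between -0.77 and 0.51, none of them called. Of the other ferlins 3 were tested and 0 were called by edgeR. Fer1l6 had -0.75 (edgeR adjusted p = 0.313), Myof -0.23 and Fer1l5 -0.27. Its nearest neighbour Ergic3, 1286 bases away, had 118 ± 20.5 and 132 ± 41.2 CPM, a log2 fold change of 0.16, or -0.01 among the 6 libraries with positive scores.

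Bpifb6 stood alone in its cluster. Its neighbours Bpifb2, Bpifb3, Bpifb4 and Sun5 summed to between 0 and 0.149 CPM in controls and between 0 and 0.313 CPM on cholate, and none was abundant enough to be tested. In the wider lipid-binding family Lbp, the lipopolysaccharide-binding protein, fell from 78.7 ± 39.4 to 17.4 ± 5.61 CPM (log2 fold change -2.18, SE 0.37, edgeR adjusted p = 0.00450), and was called in 5 of the 10 fits without 1 rat, with adjusted p values up to 0.0157. Bpi had -1.04 and Pltp 0.80, neither called.

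Among the relatives and partners of Shc2 and Lingo1, edgeR called Ret alone. Shc1, the ubiquitous Shc protein, stood at 44.1 ± 4.86 and 37.7 ± 6.02 CPM (log2 fold change -0.22, edgeR adjusted p = 0.346), and Grb2 at 25 and 26.2 CPM. Shc3 had 55 counts in controls and 10 on cholate and Shc4 9 and 7, too few to be tested. The receptor tyrosine kinase Ret, which signals through Shc adaptors, fell from 4.55 ± 1.79 to 1.24 ± 0.290 CPM (-1.88, SE 0.32, edgeR adjusted p = 0.00430), and was called in 4 of the 10 fits without 1 rat, with adjusted p values up to 0.0151. Of the relatives of Lingo1, Lingo4 had -1.70 (edgeR adjusted p = 0.0468, but called by DESeq2 with adjusted p = 0.00730), Lingo2 and Lingo3 had 3 and 21 counts in controls, and the ligand Rtn4 had 0.09 at 109 ± 13.8 and 115 ± 13.1 CPM. The Nogo receptor Rtn4r had 0.16 and Egfr 0.30.

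Of the sarcoglycans, Sgce and Sgcb alone had enough counts to be tested. Sgcb stood at 0.918 ± 0.528 and 0.924 ± 0.305 CPM, Sgca at 15 and 5 counts, and Sgcd and Sgcz at 0 in every library. Dystroglycan, Dag1, had 136 and 112 CPM (log2 fold change -0.28) and utrophin, Utrn, 85.4 and 52.7 CPM (-0.69), neither called. Peg10, the imprinted gene 25622 bases from Sgce, stood at 0.666, 1.65, 0.485, 2.52 and 0.109 CPM in control rats 1, 2, 5, 6 and 9, and at 0.406, 0.0411, 0.0803, 0 and 0 CPM in cholate rats 3, 4, 7, 8 and 11. Cholate rat 3 was over control rat 9, so the diets overlapped, and the log2 fold change of -3.22 (SE 0.94, edgeR adjusted p = 0.0445) was not called by edgeR, but was by DESeq2 (-3.26, adjusted p = 0.00598). The neighbours Casd1 and Ppp1r9a had 0.17 and 0.12.

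**Figure D4:**
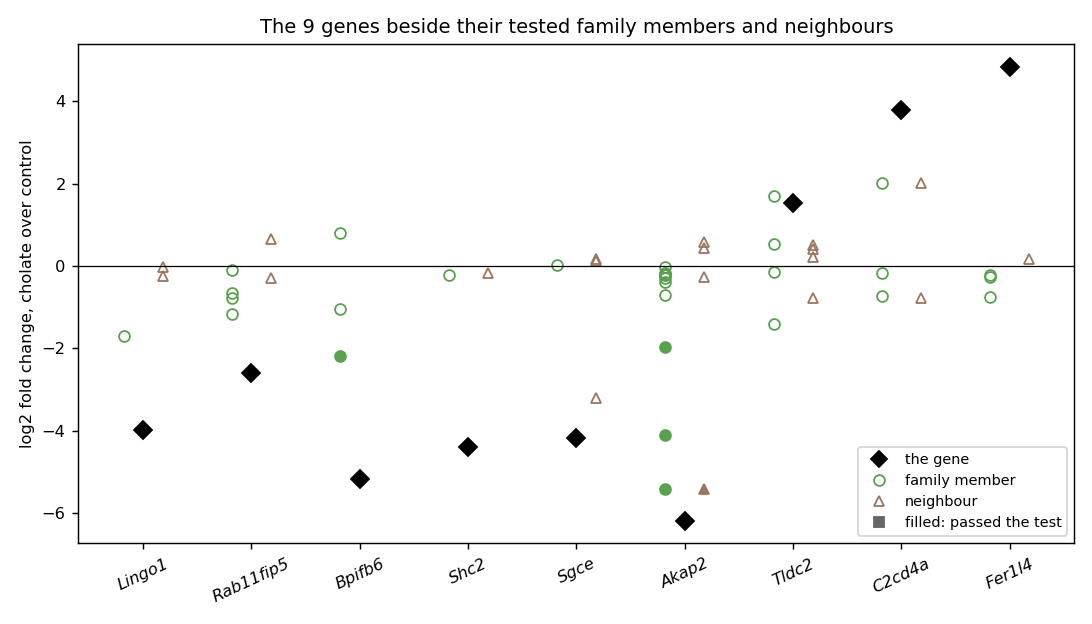
Log2 fold change of cholate over control (vertical) of each gene (diamond) beside its tested family members (circles) and neighbours (triangles), filled where the gene passed the test. Palm2, drawn both as a family member and as a neighbour of Akap2, lies at -5.41, and of the other neighbours 0 are filled.

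Co-variation within a diet uses values that did not choose the genes. Each gene's log2 CPM, with a prior count of 2, was centred on its diet mean, and the 36 pairs were correlated over the 10 rats with exact permutation of the 14400 pairings within diets. None of the 36 pairs passed an adjusted p of 0.05, 3 had an unadjusted p under 0.05, and 16 had a positive r. The 15 pairs of lowered genes had a median r of 0.05 (from -0.39 to 0.68), the 3 pairs of raised genes one of -0.09, and the 18 mixed pairs one of -0.13. No tracking from rat to rat was thus detectable with 10 rats among genes that differed the same way between diets.

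The 3 pairs with the largest r involved 5 of the genes. Rab11fip5 and C2cd4a ran opposite to each other, with r = -0.70 and rho = -0.77 (exact permutation p = 0.0383, adjusted p = 0.460 over 36 pairs), r = -0.60 without the 2 rats farthest out and r = -0.40 among the 6 libraries with positive scores. Shc2 and Akap2 ran together, with r = 0.68 and rho = 0.83 (exact permutation p = 0.0366, adjusted p = 0.460), r = 0.80 without 2 rats and r = 0.51 among the 6 libraries. Shc2 and Fer1l4 ran opposite, with r = -0.67 and rho = -0.73 (exact permutation p = 0.0249, adjusted p = 0.460), r = -0.62 without 2 rats and r = -0.19 among the 6 libraries. All 3 were smaller within the 6 libraries.

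The leading axis itself was compared with the 9 genes. Fer1l4 had r = -0.84 and rho = -0.68 with the score (exact permutation p = 0.0124, adjusted p = 0.111 over 9 genes), and r = -0.80 without the 2 rats farthest out. Akap2 had r = 0.67 (rho = 0.54, exact permutation p = 0.0450, adjusted p = 0.182), and r = 0.66 without those 2 rats. Shc2 had r = 0.60 (rho = 0.53, exact permutation p = 0.0608, adjusted p = 0.182), and r = 0.97 without them. The other 6 genes had r between -0.31 and 0.30, and without those 2 rats between -0.62 (Rab11fip5, from -0.10) and 0.31. Sgce turned from 0.30 to -0.35.

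**Figure D5:**
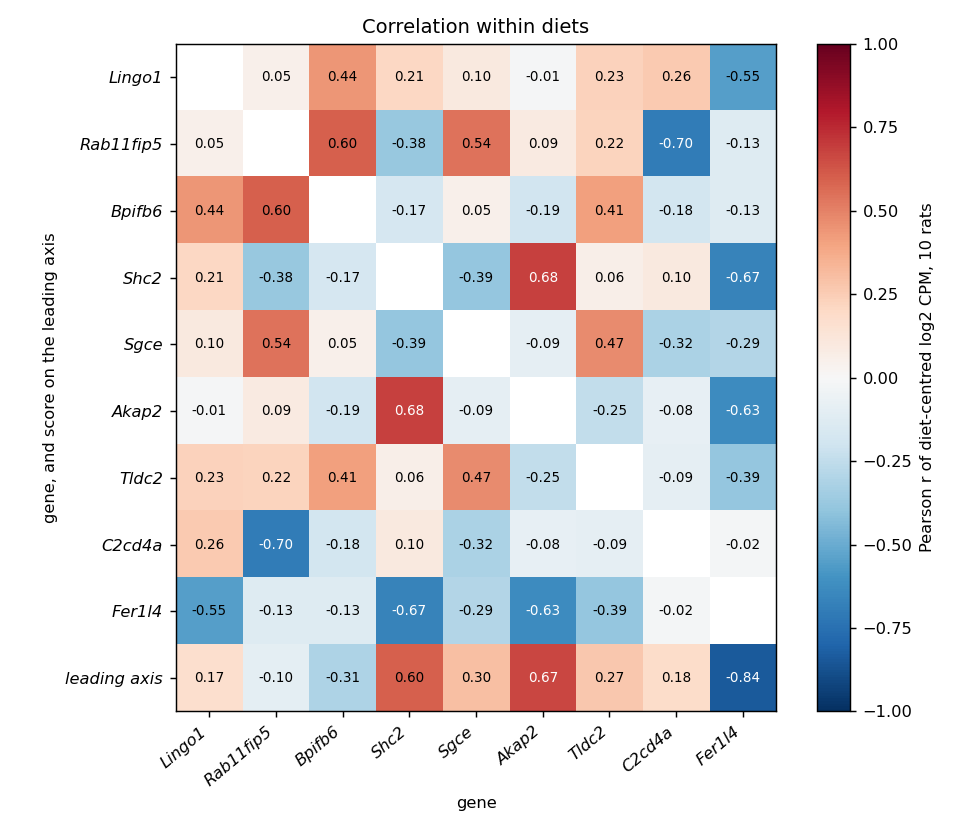
Pearson r of diet-centred log2 CPM over 10 rats for each pair of the 9 genes, and in the bottom line for each gene with the score on the leading axis of variation within diets (colour from -1 to 1). Fer1l4 has r = -0.84 with the axis, and its r is negative with each of the other 8 genes, from -0.67 to -0.02.

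Library depth and the marker lists were related to the 9 genes in 90 further tests within diets. None passed an adjusted p of 0.05 by exact permutation, while 7 had an unadjusted p under 0.05. Each list entered as the mean log2 CPM of its tested markers, not as the summed CPM given above. Rab11fip5 had r = -0.81 with the fibroblast mean (rho = -0.83, exact permutation p = 0.00451, adjusted p = 0.233) and r = -0.55 without the 2 rats farthest out. The endothelial mean had r = 0.83 with Akap2 (rho = 0.84, exact permutation p = 0.00535, adjusted p = 0.233) and r = 0.72 without 2 rats. With Shc2 it had r = 0.77 (rho = 0.81, exact permutation p = 0.00778, adjusted p = 0.233) and r = 0.82 without 2 rats. Shc2 also had r = 0.72 with the log2 total count (rho = 0.61, exact permutation p = 0.0280, adjusted p = 0.408), and r = 0.42 without 2 rats. Fer1l4 had r = -0.75 with the smooth muscle mean (rho = -0.81, exact permutation p = 0.0274, adjusted p = 0.408), and r = -0.68 without 2 rats. With the goblet mean Fer1l4 had r = 0.73 (rho = 0.78, exact permutation p = 0.0315, adjusted p = 0.408), and r = 0.57 without 2 rats. Sgce had r = 0.68 with the tuft mean (rho = 0.70, exact permutation p = 0.0317, adjusted p = 0.408), and r = 0.78 without 2 rats. The part of these means in the diet differences was not tested.

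Against their own tested neighbours, 1 of 19 relations passed within diets. Rab11fip5 ran opposite to Smyd5, a SET and MYND domain protein encoded 60569 bases away on the other strand, with r = -0.89 and rho = -0.96 (exact permutation p = 0.000417, adjusted p = 0.00792 over 19 relations), and r = -0.87 without the 2 rats farthest out. Smyd5 stood at 7.33, 6.90, 11.5, 9.96 and 11.9 CPM in control rats 1, 2, 5, 6 and 9, and at 18.5, 18.3, 14.5, 12.5 and 11.2 CPM in cholate rats 3, 4, 7, 8 and 11. Smyd5 was not called between diets by edgeR with all 10 rats (log2 fold change 0.66, adjusted p = 0.0708). Among the 6 libraries with positive scores its log2 fold change was 1.11. In each diet the rat with the least Rab11fip5 was among those with the most Smyd5, and cholate rat 11 had the most Rab11fip5 and the least Smyd5. The relation missed the limit with library size alone as the scaling (r = -0.71, adjusted p = 0.136), without control rat 2 (r = -0.87, adjusted p = 0.145), without cholate rat 4 (r = -0.88, adjusted p = 0.0528) and among the 6 libraries with positive scores (r = -0.88, adjusted p = 0.528). Fer1l4 and Ergic3 had r = 0.76 (rho = 0.66, exact permutation p = 0.0231, adjusted p = 0.220).

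For each of the 9 genes the 3 genes most like it within diets were taken from 9762 genes with a mean of at least 5 CPM, by r over the 10 rats and with no test. Nearest to Rab11fip5 were Tacc2 (r = 0.960) and Fut1 (0.920). Nearest to Shc2 were Myzap (0.966), Map3k3 (0.921) and Taf5 (0.904), to Sgce Wiz (0.918), Ccdc112 (0.909) and Zfand1 (0.903), and to Akap2 Phf13 (0.934), Enpp1 (0.921) and Sulf2 (0.921). C2cd4a was nearest to Efl1 (0.976), B4galt5 (0.97) and LOC100912272 (0.937). Lingo1 (Stom 0.866, Slc2a1 0.863, Ephb2 0.852), Bpifb6 (Gpbp1 0.853, Mptx1 0.830, Ggnbp2 0.820) and Tldc2 (Cpped1 0.860, ND2 0.860, Muc13 0.854) had no gene at 0.9 or over. Fer1l4 was nearest to Tarbp2 (0.976), Mcemp1 (0.974) and Slc7a4 (0.965), and had 81 genes at 0.9 or over, against 0 to 5 for each of the other 8. None of the 27 genes taken this way was called between diets by edgeR. Among them Tacc2, at 166 ± 5.59 and 124 ± 5.24 CPM, had the smallest adjusted p (edgeR, 0.0103; log2 fold change -0.42).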

How the data were processed

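Per the series design text, libraries were strand-specific, made from poly(A) RNA and read on an Illumina HiSeq. Reads were demultiplexed with bcl2fastq 1.8.4 and mapped with BWA-MEM 0.7.12-r1039 to rn6, per the submitters' processing notes. How reads were counted, and whether by strand, was not given in the sources used here, and reads of a gene and an antisense partner may not be separated. No member shares coding bases with another gene of the annotation. On the opposite strand, however, Lingo1 is overlapped by the pseudogene LOC100360369 and C2cd4a by Vps13c. Neither of these has a coding part in the annotation, so the absence of shared coding bases says nothing of reads from them. The deposited table holds raw counts, the authors' normalized signal (CPM after TMM with edgeR 3.16.2) and lengths. Against the deposited annotation (Rnor_6.0) the lengths of all 23422 genes equal the union of coding exons.

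The deposited counts were tested with edgeR 4.0.16 (R 4.3.3) by filterByExpr, TMM and the robust quasi-likelihood test with diet as the only term, with Benjamini-Hochberg adjustment over 12385 genes. The threshold was an adjusted p under 0.01 with a log2 fold change beyond 1 in either direction. Dividing the log2 fold change by the root of F gave the standard error. The deposited signal served to check the scaling. The p values and standard errors of the fit take the spread between rats into account. The 3-count limit covers counting error only. DESeq2 1.42.0, limma 3.58.1, other scalings, filters and prior counts, and leaving out each rat were alternatives. The fits and the correlations were tested on simulated data.

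The 9 genes and all lists were chosen with earlier results of these data known. The rule named the 9 genes, the called genes of each list of relatives (otherwise the gene with the smallest adjusted p), the 3 most alike genes and the 3 pairs with the largest r, and 1 gene it named is not reported here. Further relatives were named for their role, after their values were seen. The relations with neighbours and the 6-library comparison were added after seeing the data. The 6 libraries were picked by their side of the leading axis of variation within diets. That choice itself narrows their spread, so p values and numbers of calls between diets among them cannot serve as support. Promoters are from RefSeq, GRCr8, and no coordinates were moved between builds.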

Additional observations from a re-analysis of the deposited data

Results flagged for a closer look

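Each gene's CPM was searched within each diet for a single rat apart from the other 4 by Dixon's ratio of gap to range, in 18 groups of 5 rats, of which chance flags about 1 in 20. Akap2 in cholate rat 4 stood at 0.308 CPM against 0 to 0.0803 CPM in the other cholate rats (gap over range 0.739), a value that rests on 15 counts. Tldc2 in control rat 6 stood at 15.3 CPM against 11.3 to 12.2 CPM in the other controls (gap over range 0.780).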

How the results depend on the processing

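Over 19 other settings the 9 log2 fold changes moved by more than their SD within diets, pooled over both, in 3 instances: Akap2 without cholate rat 4 (-7.36), and Rab11fip5 (-2.98) and C2cd4a (4.75) among the 6 libraries with positive scores. The number of genes called was 398, 886 with DESeq2, 1003 among those 6 libraries and 168 to 450 when 1 rat was left out. Leaving out control rats 2, 1 and 6 gave 168, 192 and 200, and leaving out cholate rats 4 and 7 gave 207 and 221. Of the related genes 5 were called, 3 when the mean had to reach 5 CPM (which drops Palm2 and Ret), 10 with DESeq2, 10 among the 6 libraries and 2 to 5 without 1 rat. The number of relations with neighbours past the limit was 1, but 0 with library size alone, 0 among the 6 libraries and 0 to 3 without 1 rat. The count of pairs past the limit was 0 in every setting. On CPM in place of log2 CPM, r was -0.21 for Rab11fip5 and C2cd4a, -0.09 for Shc2 and Fer1l4 and 0.78 for Shc2 and Akap2. The log2 fold change of Sgcb (0.02) turned to -0.01 with upper quartile scaling, -0.04 with library size alone, -0.21 among the 6 libraries and values from -0.18 to 0.21 when 1 rat was left out (under 0 for cholate rats 3 and 4 and control rats 5 and 9), and that of Ergic3 (0.16) to -0.01 among the 6 libraries. The cause was not tested. No paired analysis was possible because the diets have no rat number in common. Bpifb6 and Akap2 on cholate (22 and 20 counts) and Fer1l4 and C2cd4a in controls (45 and 55 counts) are limited by depth.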
